A study of Mus musculus with 6 samples.

Results

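The genes described here are the p53 gene, its targets in cell cycle arrest and cell death, the Bcl2 family, the apoptosome, 4 caspases and their inhibitors. They were taken by symbol from a list of 40 genes given by function, and all 40 were among the 23420 gene symbols in the count tables. The E14.5 lacrimal gland bud was isolated by laser capture from 3 control and 3 *Pea3 TKO* samples of mixed background, and its RNA was amplified and sequenced. All 6 samples carried *Le-Cre*, whose Cre recombinase is made in the surface ectoderm of the eye. The controls (titled WT) are given as *Le-Cre* with no other allele named. Across its experiments the paper also used *Le-Cre* mice with *Pea3+/-*, *Ermflox/+* and *Er81flox/+* as controls. Nothing states whether a sample was 1 embryo or a pool. *Pea3 TKO* samples were *Le-cre*, *Pea3-/-*, *Ermfl/fl* and *Er81fl/fl*, so that *Pea3* (*Etv4*) was missing in every cell of the embryo whereas *Erm* (*Etv5*) and *Er81* (*Etv1*) could be lost only in cells that had expressed Cre. The study asked what these transcription factors do downstream of FGF in the gland.

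The p53 protein is a transcription factor that is held low by Mdm2 and that, when stabilised, activates genes for arrest, repair and death. In the mitochondrial death pathway, BH3-only proteins bind the anti-apoptotic Bcl2 proteins or activate the pore-forming ones, cytochrome c leaves the mitochondrion, and Apaf1 then assembles with it to activate caspase 9. Death receptors such as Fas act through caspase 8 instead. Much of this machinery is regulated at the protein level, which RNA counts do not measure, and FGF-ERK signaling is known to restrain several BH3-only proteins.

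Libraries held 14194775 to 17860140 counts, at which 3 counts amount to 0.169 to 0.210 CPM (normalized counts per 1000000), a floor that covers counting error only. The summed expression of *Etv1*, *Etv4* and *Etv5* ran from 1168 to 1375 CPM in the controls and from 108 to 215 CPM in *Pea3 TKO*, in the direction of the labels. Of the 16 epithelium markers, which include *Cdh1* and *Pax6*, 13 were called higher in *Pea3 TKO* and none lower, and their sum was 4533–5608 CPM in controls and 7916–9446 CPM in *Pea3 TKO*. Epidermis and conjunctiva markers, with 19 of 20 called higher, summed to 1220–2523 CPM in controls and 7098–9696 CPM in *Pea3 TKO*, and within the controls replicate 1 was highest. Mesenchyme markers summed to 676–828 CPM in the controls. In *Pea3 TKO* they summed to 1160 and 1329 CPM in replicates 1 and 2 and to 644 CPM in replicate 3. Of 22 tested, 4 were called higher and 2 lower, and by fitted value 19 were higher and 3 lower. *Dcn* was at 0.249 to 4.42 CPM in controls and at 69.7, 73.6 and 2.41 CPM in *Pea3 TKO* replicates 1 to 3. For *Lum* these were 0.338 to 8.39 CPM and 60.5, 79.9 and 2.06 CPM. A large part of the control sum came from *Foxc1* (mean 210 CPM) and *Fbn1* (126 CPM). Over all 13087 genes tested, 13.6% were called higher and 11.3% lower. Endothelium markers summed to at most 35.2 CPM in any library, with *Tie1*, *Emcn* and *Robo4* at 0 throughout, and blood and immune markers to 41.6–136.8 CPM in controls and 61.3–222.7 CPM in *Pea3 TKO*. None of the 2 endothelium and 10 blood and immune markers tested was called by edgeR, where 1 and 0 had an unadjusted p under 0.05, nor by DESeq2. The 4 Y-linked genes summed to 136–175 CPM in the controls and 139 CPM in *Pea3 TKO* replicate 3, but to 0.445 and 0.210 CPM in *Pea3 TKO* replicates 1 and 2. The part of the marker shifts in the results on p53 and apoptosis genes was not tested, and that of the Y-linked difference was examined only by the 2 fits described with them. *Pea3 TKO* replicates 1 and 2 had both the Y-linked sum near 0 and the higher mesenchyme sum. Those fits therefore cannot tell the Y-linked and the mesenchyme difference apart. In bulk samples, fewer cells of a type and less RNA per cell cannot be told apart.

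**Figure D1:**
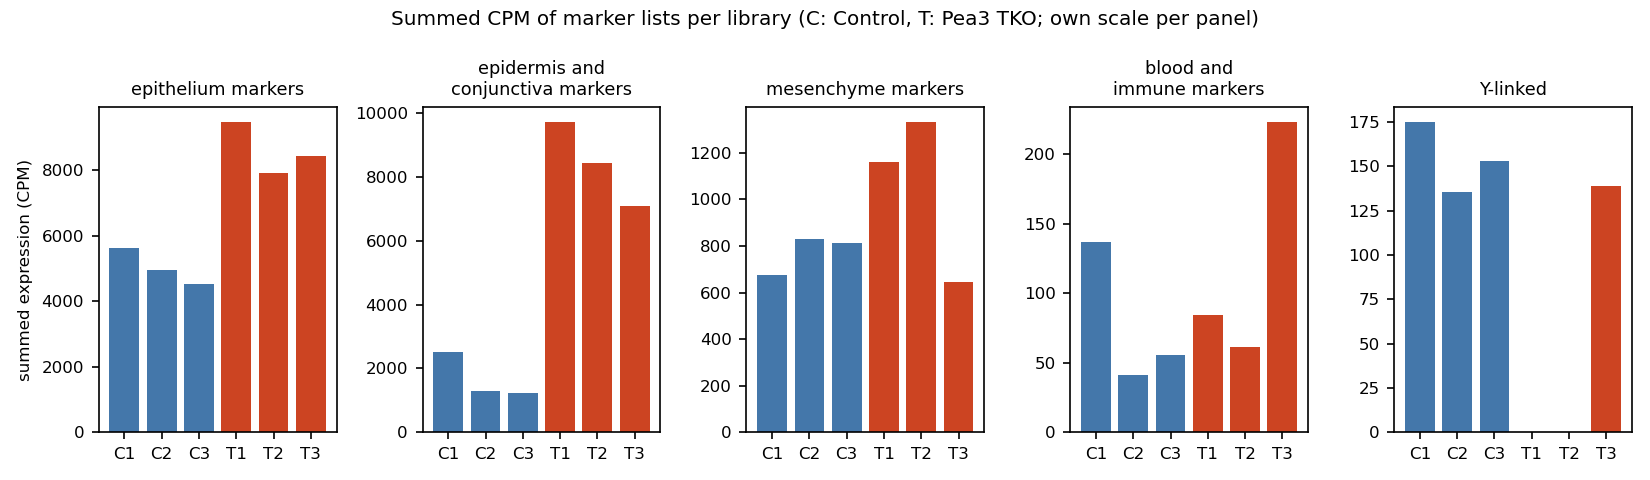
Summed CPM of marker lists in each library (bars; C1 to C3, Control; T1 to T3, *Pea3 TKO*; each panel has its own scale from 0). Epithelial and epidermal sums are higher in all 3 *Pea3 TKO* libraries, mesenchyme markers only in T1 and T2, and the Y-linked sum is near 0 in T1 and T2.

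Of the 40 genes, 39 had enough counts to be tested, and 18 of them were called at an adjusted p under 0.05 by the edgeR quasi-likelihood test, 14 higher and 4 lower in *Pea3 TKO*. Over all 13087 genes tested, 25.0% were called, 13.6% higher and 11.3% lower. The share of the list called was 46.2%, and another 6 genes had an unadjusted p under 0.05. This makes 24 of the 39 genes with an unadjusted edgeR p under 0.05, against 4943 of all 13087 tested. Counting by fitted value, 31 of the 39 genes were higher in *Pea3 TKO*, against 6643 of all 13087. The median log2 fold change of the 39 genes was 0.48 against 0.0094 for all genes tested. The groups did not overlap for 22 genes of the list, against 43.9% of all genes tested. Of these, 16 were higher and 6 lower, against 22.5% and 21.3% of all genes. The gene left untested, *Hrk*, a BH3-only gene of neurons, had 0 counts in 5 libraries and 0.130 CPM in control replicate 3.

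Of the fits run, those that took account of the Y-linked genes called the fewest. With the Y-linked sum as a covariate, 5.94% of all genes were called, 3.76% higher and 2.19% lower, and 3 of the 39, namely *Phlda3*, *Pmaip1* and *Bcl2l11*, all higher. All 18 called genes kept their direction in that fit, their log2 fold changes were 0.588 to 1.10 times those without the covariate, and the median standard error rose from 0.204 to 0.278. The Y-linked sum was near 0 only in *Pea3 TKO* replicates 1 and 2 (0.445 and 0.210 CPM). In that fit the conditions are therefore compared mainly through *Pea3 TKO* replicate 3. Comparing only the 4 Y-positive libraries, 3 controls against *Pea3 TKO* replicate 3, left 4.32% of all genes called, 2.28% higher and 2.04% lower, and 4 of the 39. These were *Pmaip1*, *Bmf* and *Bcl2l11*, higher, and *Aen*, lower. In that comparison, chosen after the data were seen, the lone *Pea3 TKO* library is assumed to vary like the controls. Replicate 3 itself lay above every control for all 14 genes called higher and below every control for all 4 called lower. These genes were called by a fit that included replicate 3. Neither its position nor their kept direction with the Y-linked genes taken into account is therefore separate evidence for them.

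**Figure D2:**
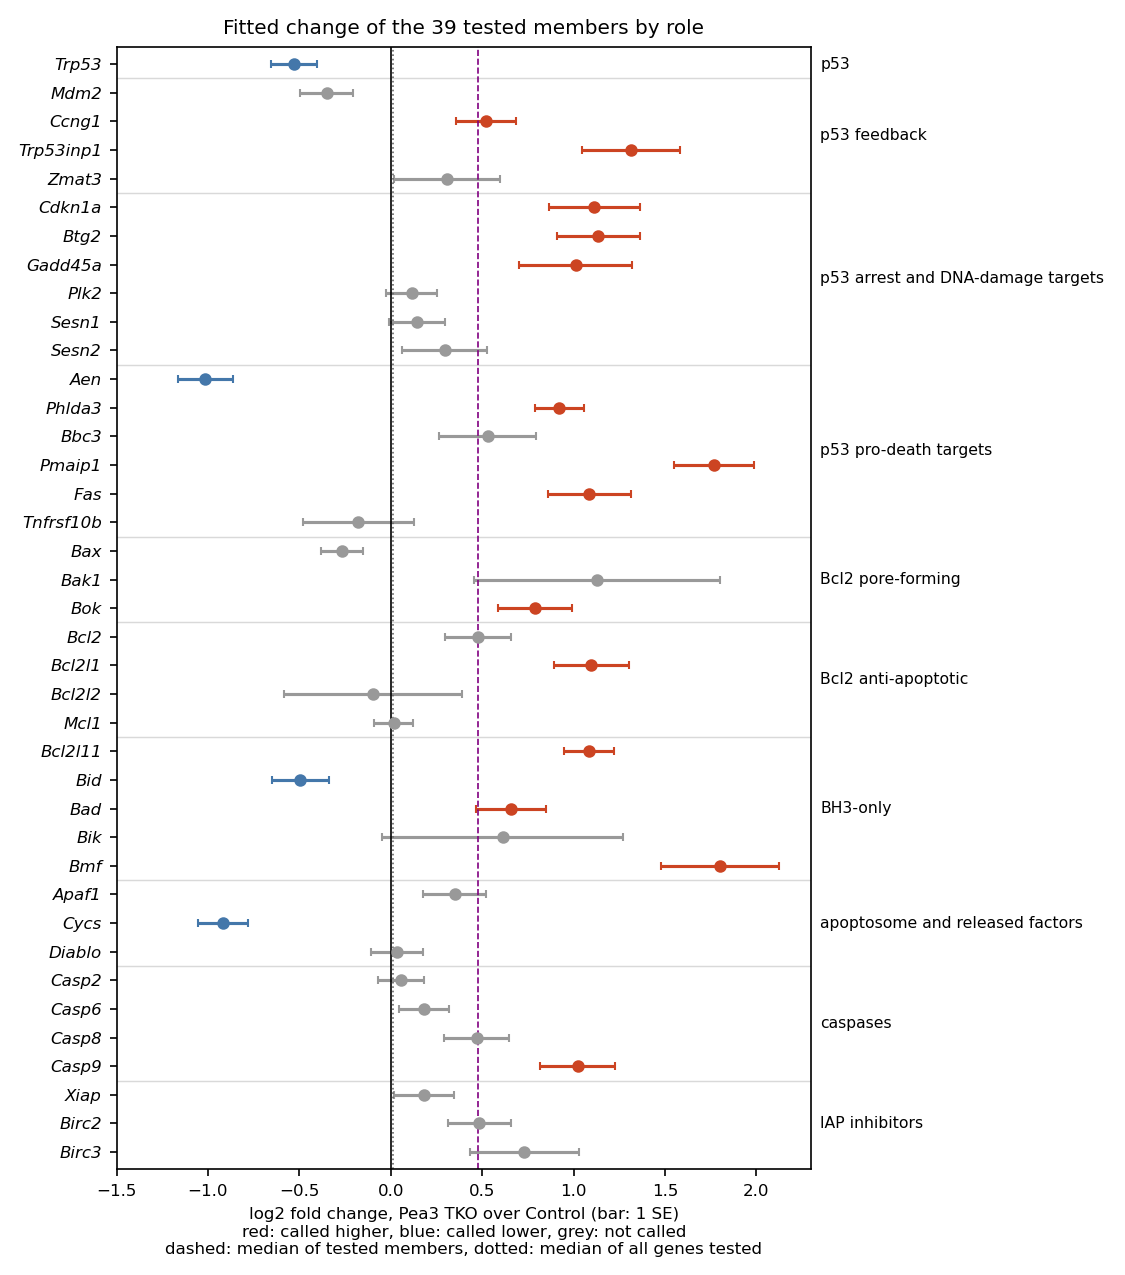
Fitted log2 fold change of *Pea3 TKO* over Control for the 39 tested genes, grouped by role (points, bars of 1 SE; red, called higher; blue, called lower; grey, not called). Most points lie right of 0, with *Bmf* at 1.80 and *Pmaip1* at 1.77 the highest and *Aen* at -1.01 the lowest.

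*Trp53*, on chromosome 11 from 69580359 to 69591873 (GRCm38), had the highest level per exon length of the list, with means of 247 CPM per kb in controls and 171 in *Pea3 TKO*. Its expression was 435, 499 and 449.5 CPM in control replicates 1 to 3 and 296, 295 and 366 CPM in *Pea3 TKO* replicates 1 to 3. All *Pea3 TKO* values lay below all controls, a log2 fold change of -0.53 (standard error 0.13, edgeR adjusted p = 0.0139). The call was lost without control replicate 2 (edgeR adjusted p = 0.0645) and without *Pea3 TKO* replicate 2 (0.0705), and with the Y-linked covariate the log2 fold change was -0.33 (0.277).

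Of the 4 genes in feedback with p53, 2 rose and the others were not called. *Mdm2*, the ubiquitin ligase that degrades p53 and is itself a p53 target, was at 99.4, 82.3 and 75.8 CPM in controls and 64.2, 63.4 and 74.4 CPM in *Pea3 TKO*. These groups did not overlap, but the log2 fold change of -0.35 missed the threshold (edgeR adjusted p = 0.108). *Trp53inp1*, a p53-induced nuclear protein that promotes p53 activity and autophagy (chromosome 4 from 11156431 to 11174379), was at 50.5, 23.6 and 32.7 CPM in controls and rose to 102, 96.4 and 66.8 CPM. Its log2 fold change was 1.31 (standard error 0.27, edgeR adjusted p = 0.00731). *Ccng1*, encoding cyclin G1, which recruits a phosphatase to Mdm2, was at 179, 135 and 129.6 CPM in controls and 179, 248 and 209.6 CPM in *Pea3 TKO*. *Pea3 TKO* replicate 1 fell within the control range, and this was the only called gene whose groups overlapped (log2 fold change 0.52, standard error 0.16, edgeR adjusted p = 0.0436). Its adjusted p was 0.150 and 0.153 without control replicates 2 and 3, and 0.153 and 0.0782 without *Pea3 TKO* replicates 2 and 3. *Zmat3*, a p53-induced RNA-binding protein, stayed between 8.97 and 16.7 CPM in all libraries and was not called.

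Of the 6 arrest and DNA damage targets, 3 rose and none fell. *Cdkn1a*, which encodes the cyclin-dependent kinase inhibitor p21, lies on chromosome 17 from 29090976 to 29100727. It was at 64.3, 53.9 and 29.6 CPM in controls and 115, 90.9 and 114 CPM in *Pea3 TKO*, and the lowest *Pea3 TKO* value exceeded the highest control. The log2 fold change was 1.11 (standard error 0.25, edgeR adjusted p = 0.0108), and with the Y-linked covariate it was 1.23 (0.0795). *Btg2*, an anti-proliferative cofactor of mRNA deadenylation (chromosome 1 from 134075170 to 134079120), rose from 52.6, 28.5 and 29.8 CPM to 84.9, 75.7 and 83.3 CPM. Here control replicate 1 stood apart from the other controls and still lay below all *Pea3 TKO* samples (log2 fold change 1.14, standard error 0.23, edgeR adjusted p = 0.00658). *Gadd45a*, a stress sensor that binds cell cycle and stress kinases, was scarce, at 4.85, 7.04 and 6.44 CPM in controls and 15.3, 11.8 and 9.81 CPM in *Pea3 TKO*. Its log2 fold change of 1.01 (standard error 0.31, edgeR adjusted p = 0.0401) was close to the threshold, and the adjusted p lay between 0.0719 and 0.130 when any 1 library other than *Pea3 TKO* replicate 3 was left out.

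The other arrest and stress targets were not called. *Plk2*, a kinase of the centriole cycle, ran from 137 to 187 CPM over all 6 libraries (log2 fold change 0.11, standard error 0.14). The sestrins restrain mTORC1 under stress, and *Sesn1* was at 63.7, 65.0 and 65.6 CPM in the controls and 77.5, 80.3 and 57.1 CPM in *Pea3 TKO*, on both sides of the controls. *Sesn2* overlapped between the groups as well (log2 fold change 0.30, standard error 0.23).

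Of the 6 p53 targets that promote death, 3 rose and 1 fell. *Pmaip1*, encoding the BH3-only protein Noxa, which binds Mcl1 (chromosome 18 from 66458533 to 66465565), was at 13.98, 14.7 and 9.69 CPM in controls and 37.1, 48.6 and 45.2 CPM in *Pea3 TKO*. It rose 3.41-fold (log2 fold change 1.77, standard error 0.22, edgeR adjusted p = 0.000618) and remained called with the Y-linked covariate (1.81, 0.0100). *Phlda3*, a competitor of Akt for membrane lipids, was at 86.5, 88.2 and 67.0 CPM in controls and 157, 152 and 149 CPM in *Pea3 TKO*, with little spread among the latter. The gene is on chromosome 1 from 135766119 to 135769136, and its increase was 0.92 on the log2 scale (standard error 0.13, edgeR adjusted p = 0.00134). *Fas*, the death receptor on chromosome 19 from 34290666 to 34327772, rose from 28.7, 31.9 and 19.4 CPM to 57.0, 69.4 and 43.8 CPM (log2 fold change 1.09, standard error 0.23, edgeR adjusted p = 0.00835).

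*Aen*, by contrast, fell. This gene encodes a p53-induced exonuclease that degrades nucleic acid in dying cells (chromosome 7 from 78895854 to 78911209), and it was at 119, 138 and 113 CPM in controls and 50.6, 68.1 and 64.1 CPM in *Pea3 TKO*. Every *Pea3 TKO* sample lay well below every control (log2 fold change -1.01, standard error 0.15, edgeR adjusted p = 0.00145), and the call held without each library in turn. With the Y-linked covariate it was -0.95 (edgeR adjusted p = 0.0504). *Bbc3*, encoding the BH3-only protein Puma, overlapped between groups (9.56 to 12.7 CPM in controls, 11.9 to 18.8 CPM in *Pea3 TKO*, edgeR adjusted p = 0.177). The receptor *Tnfrsf10b* stayed between 8.17 and 14.2 CPM in all libraries.

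**Figure D3:**
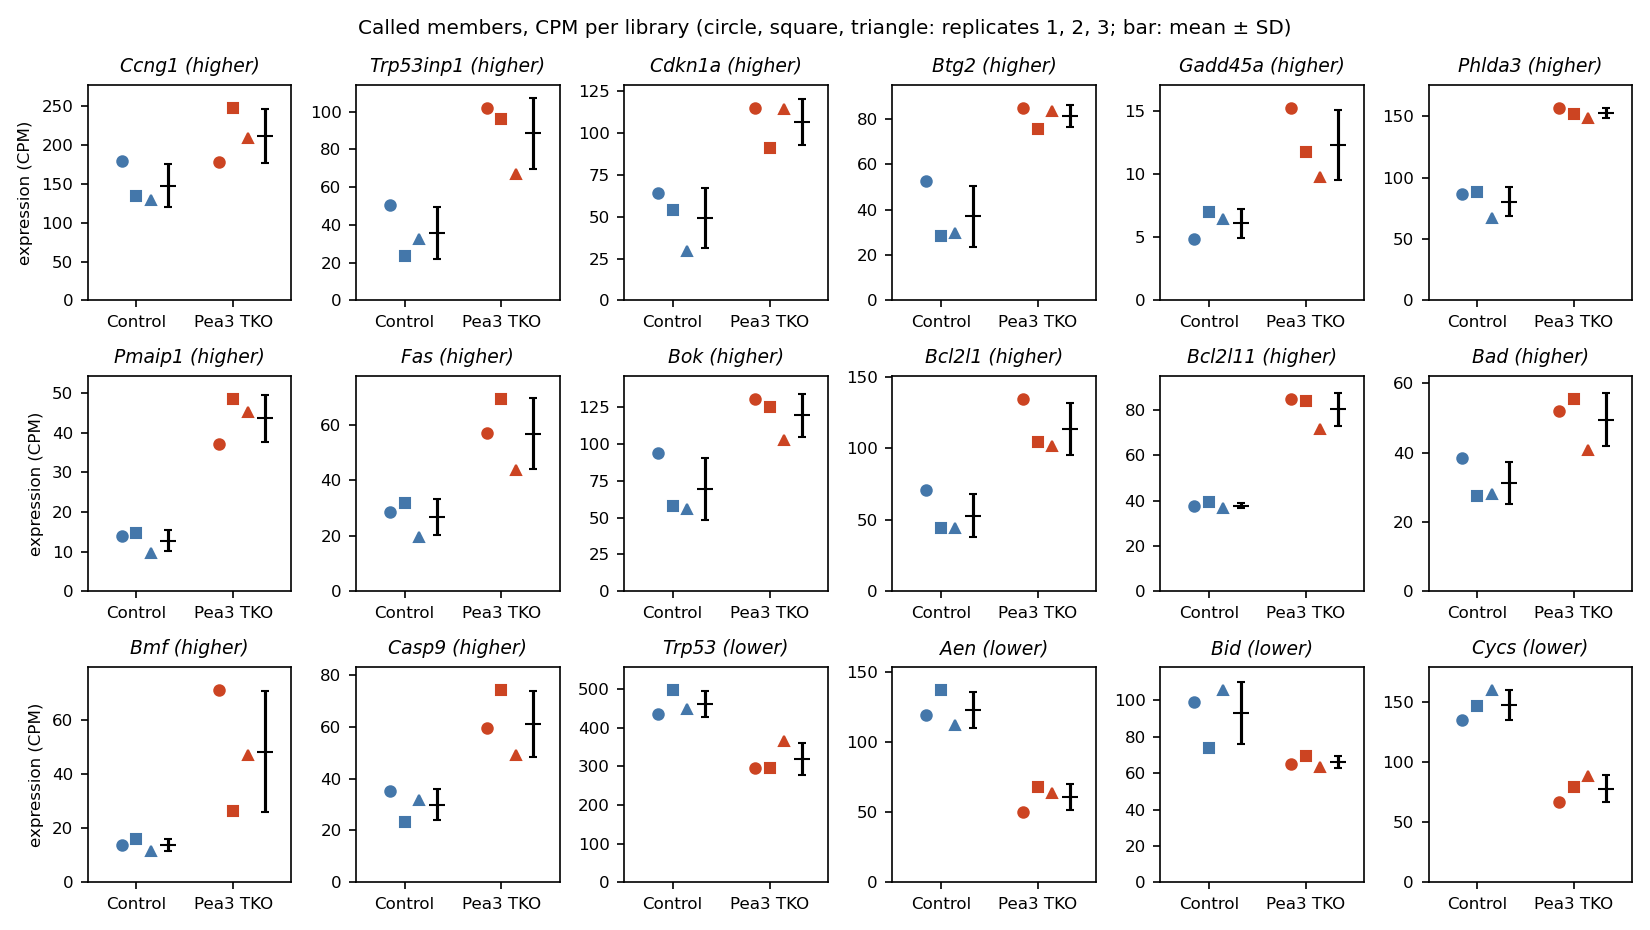
Expression (CPM, axes from 0) of the 18 called genes in each library, with circles, squares and triangles for replicates 1, 2 and 3 and black bars for the mean ± SD of 3 samples. The groups are separate in every panel except *Ccng1*, where *Pea3 TKO* replicate 1 is level with control replicate 1 at 179 CPM.

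Promoters were searched for letters matching the p53 half-site consensus, since p53 targets here moved in both directions. RefSeq promoter sequences (GRCm38.p6) matched 35 of the 40 genes by symbol, with 49 start sites, and *Trp53inp1*, *Zmat3*, *Pmaip1*, *Tnfrsf10b* and *Bik* had none. A half-site was found in the 250 bases before a start in 9 of the 35 genes (25.7%), against 8.20% of 27025 genes in the whole table, and per start site in 18.4% against 7.13%. The consensus reads the same on both strands. The matches are given 5′ to 3′ on the strand of the gene, with 10 flanking bases on each side and the half-site in capitals, first for genes called lower, then higher, then not called:
Trp53: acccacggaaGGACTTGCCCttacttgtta
Aen: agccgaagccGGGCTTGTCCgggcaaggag
Cdkn1a: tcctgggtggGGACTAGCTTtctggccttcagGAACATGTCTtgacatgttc
Gadd45a: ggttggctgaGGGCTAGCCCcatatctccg
Ccng1: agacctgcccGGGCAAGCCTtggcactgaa
Bmf: cccaagtgaaGGGCTTGCCTcttgccgaat
Mdm2: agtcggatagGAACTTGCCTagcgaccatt
Sesn1: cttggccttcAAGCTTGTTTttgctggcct
Bax: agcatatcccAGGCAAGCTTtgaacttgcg

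The match of *Trp53* itself began 75 bases before its start, at chr11:69580274-69580303 on the plus strand, where the full GENCODE M21 annotation lists no exon. That of *Aen* began 121 bases before the start at chr7:78895927-78895956 (plus), which is exonic untranslated sequence of another *Aen* transcript. *Cdkn1a* held 2 half-sites 12 bases apart at chr17:29090896-29090947 (plus), beginning 73 and 51 bases before the start and outside any exon, and was the 1 gene of the list with a pair of half-sites at most 13 bases apart, which 0.0639% of all promoters held. The *Gadd45a* match, at chr6:67037428-67037457 (minus), began 40 bases before the start and is exonic in another *Gadd45a* transcript. Those of *Ccng1* (chr11:40755452-40755481, minus) and *Mdm2* (chr10:117710925-117710954, minus) lay in no annotated gene. *Bmf* (chr2:118544781-118544810, minus) and *Sesn1* (chr10:41887256-41887285, plus) had theirs inside the gene but in no exon, and the *Bax* match (chr7:45467080-45467109, minus) lay in no exon of the overlapping gene *Gm45808*. Matches thus occurred before genes called lower (*Trp53*, *Aen*), genes called higher (*Cdkn1a*, *Gadd45a*, *Ccng1*, *Bmf*) and genes not called (*Mdm2*, *Sesn1*, *Bax*). The letters CCGGAAG, an ETS core, were searched on both strands in the same windows. They were found before 4 of the 35 genes (11.4%), *Bcl2l11*, *Birc2*, *Mcl1* and *Mdm2*, against 7.83% of all genes. Per start site the share was 8.16% against 6.91% of all. Such matches describe the sequence and are not evidence of binding.

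Among the pore-forming proteins, *Bax* had by far the highest level, at 147 CPM per kb in controls and 122 in *Pea3 TKO*. Its expression was 133, 129 and 120.2 CPM in controls and 114, 98.9 and 105 CPM in *Pea3 TKO*, which did not overlap, but the log2 fold change of -0.27 (standard error 0.11) was not called (edgeR adjusted p = 0.115). *Bak1*, the partner able to replace it, was low, with 0.902 to 1.81 CPM in controls and 1.40 to 4.06 CPM in *Pea3 TKO*. *Bok*, a relative that can form pores without the other two (chromosome 1 from 93685660 to 93695764), rose from 93.4, 57.8 and 56.0 CPM to 130.4, 124 and 103 CPM. Its log2 fold change was 0.79 (standard error 0.20, edgeR adjusted p = 0.0199). The adjusted p lay between 0.0615 and 0.0825 without control replicate 2 or 3 or *Pea3 TKO* replicate 1 or 2, and control replicate 1, if left out, raised the log2 fold change to 1.06. The summed level of these 3 genes overlapped between groups, at 177–217 CPM per kb in controls and 192–221 in *Pea3 TKO*.

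Of the anti-apoptotic genes, 1 of 4 rose. *Bcl2l1*, which encodes Bcl-xL (chromosome 2 from 152780668 to 152831728), was at 70.7, 44.4 and 44.0 CPM in controls and 135, 105 and 101 CPM in *Pea3 TKO*. Control replicate 1 was again the highest control and lay below all *Pea3 TKO* samples (log2 fold change 1.10, standard error 0.21, edgeR adjusted p = 0.00485). *Mcl1*, the target of Noxa, was the most abundant per length at 53.1 and 53.6 CPM per kb and had a log2 fold change of 0.015 with a standard error of 0.11. *Bcl2*, the founding member, passed the threshold without control replicate 1 (edgeR adjusted p = 0.0476), and with all libraries its values were 32.8 to 45.7 CPM in controls and 44.8 to 60.1 CPM in *Pea3 TKO* (edgeR adjusted p = 0.0797). *Bcl2l2*, which encodes Bcl-w, did not exceed 5.72 CPM in any library. Summed per length, the 4 genes reached 67.3–81.0 CPM per kb in controls and 86.4–94.7 in *Pea3 TKO*, without overlap. Most of this difference came from *Bcl2l1*, with means of 13.7 CPM per kb in controls and 29.2 in *Pea3 TKO*. For *Bcl2* the means were 4.30 and 5.99, for *Mcl1* 53.1 and 53.6, and for *Bcl2l2* 0.973 and 0.907.

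Of the 5 other BH3-only genes tested, 3 rose and 1 fell. *Bmf*, whose protein is tied to the cytoskeleton and released on detachment (chromosome 2 from 118528757 to 118549687), was at 13.98, 15.95 and 11.6 CPM in controls and 71.2, 26.4 and 47.0 CPM in *Pea3 TKO*. It rose 3.48-fold, with the widest spread among *Pea3 TKO* samples of the called BH3-only genes (log2 fold change 1.80, standard error 0.32, edgeR adjusted p = 0.00403; with the Y-linked covariate 1.78, 0.0515). *Bcl2l11*, encoding Bim, whose protein is marked for degradation by ERK, lies on the same chromosome from 128126038 to 128162547. It was very even in the controls, at 37.5, 39.2 and 36.7 CPM, and rose to 84.9, 84.0 and 71.7 CPM (log2 fold change 1.08, standard error 0.14, edgeR adjusted p = 0.000654; with the covariate 0.92, 0.0200). *Bad*, whose protein is held inactive by phosphorylation downstream of growth factors, rose from 38.3, 27.4 and 28.2 CPM to 51.8, 55.5 and 40.8 CPM (log2 fold change 0.66, standard error 0.19, edgeR adjusted p = 0.0309). *Bad* shares exonic sequence with *Gpr137* on the opposite strand, and since strand-specific counting is not stated, reads of both cannot be told apart. *Gpr137* was also higher in *Pea3 TKO* by its means, at 16.7 CPM in controls and 24.4 CPM in *Pea3 TKO*. The adjusted p of *Bad* was between 0.0878 and 0.116 without control replicate 2 or 3 or *Pea3 TKO* replicate 1 or 2.

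*Bid*, which links death receptors to mitochondria once cut by caspase 8, fell instead. It was at 99.2, 73.8 and 106 CPM in controls and 64.9, 69.6 and 63.4 CPM in *Pea3 TKO* (log2 fold change -0.49, standard error 0.15, edgeR adjusted p = 0.0426). This is a marginal call, since the adjusted p was between 0.0864 and 0.156 when any 1 library except control replicate 2 was left out. *Bid* shares exonic sequence with *Bcl2l13* on the opposite strand, which was more abundant (means of 134 CPM in controls and 152 CPM in *Pea3 TKO*), so that its level and its fall carry the same limit as those of *Bad*. *Cdkn1a*, *Gadd45a*, *Bak1*, *Bcl2*, *Diablo* and *Casp9* also share exonic sequence with genes on the opposite strand, of which those in the count tables had means of at most 1.45 CPM. On the same strand, *Bax* overlaps *Gm45808*, *Bcl2l2* overlaps *Gm20521* and *Diablo* overlaps *Gm49027*. These genes are absent from the count tables, and strand cannot tell such reads apart. *Bik* stayed between 0.845 and 3.81 CPM. Per length, *Bid* had the highest mean of the group in both conditions, at 42.5 and 30.1 CPM per kb, while *Bcl2l11* went from 5.49 to 11.6, *Bad* from 13.1 to 20.6, *Pmaip1* from 4.68 to 16.0 and *Bmf* from 2.87 to 9.98. The summed level of the 8 BH3-only genes, *Bbc3* and *Pmaip1* included, was 66.6–83.0 CPM per kb in controls and 90.7–105 in *Pea3 TKO*.

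**Figure D4:**
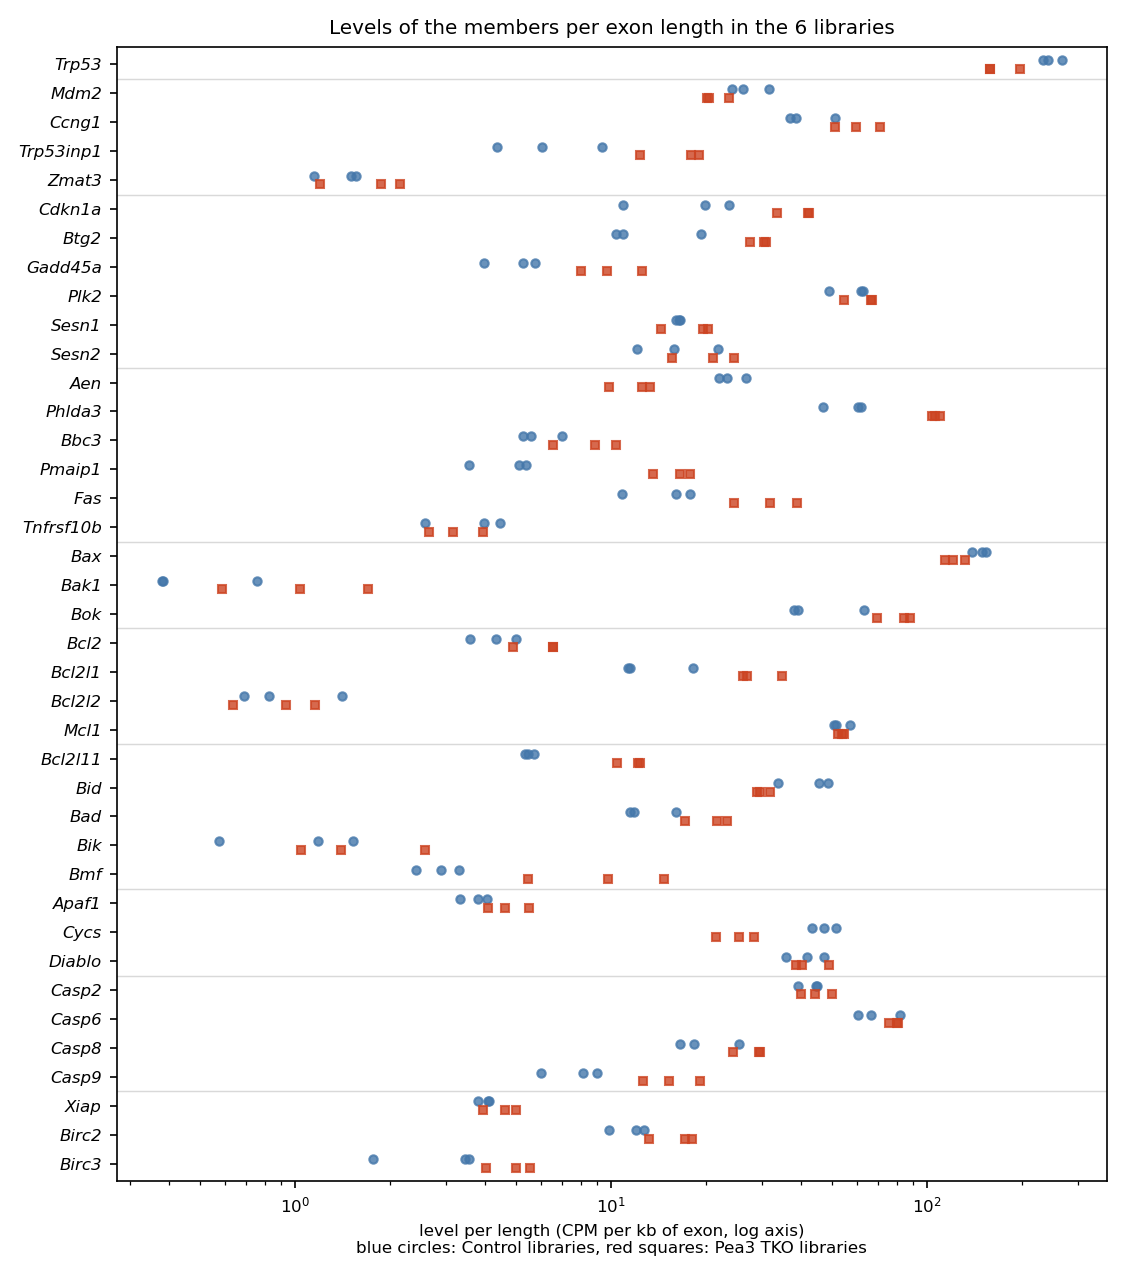
Level per exon length (CPM per kb, log axis) of 39 genes in each library (blue circles, Control; red squares, *Pea3 TKO*), grouped by role in the order of the text. In the means of controls *Trp53* and *Bax* have the highest levels and *Bak1* the lowest of those drawn, while in *Pea3 TKO* *Bcl2l2* (0.907) lies below *Bak1* (1.11); *Hrk*, at 0 in 5 libraries, is not drawn.

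Downstream of the mitochondrion the genes moved apart. *Cycs*, encoding cytochrome c (chromosome 6 from 50562563 to 50566538), was at 135, 147 and 161 CPM in controls and 66.9, 79.1 and 88.6 CPM in *Pea3 TKO*. It fell by 0.92 on the log2 scale (standard error 0.14, edgeR adjusted p = 0.00162), and the call held without each library in turn. With the Y-linked covariate the log2 fold change was -0.74 (edgeR adjusted p = 0.0648, unadjusted p = 0.00469). Processed copies of *Cycs* in the genome can take or lend reads, and cytochrome c also serves respiration. *Casp9*, the initiator caspase of the apoptosome (chromosome 4 from 141793612 to 141815976), rose from 35.1, 23.3 and 31.7 CPM to 59.4, 74.3 and 49.2 CPM, without overlap (log2 fold change 1.02, standard error 0.21, edgeR adjusted p = 0.00679). *Apaf1*, the scaffold that binds both, did not overlap between groups (27.5 to 33.4 CPM in controls, 33.8 to 45.5 CPM in *Pea3 TKO*) and was not called (log2 fold change 0.35, edgeR adjusted p = 0.174). For *Diablo*, which is released with cytochrome c and neutralises the caspase inhibitors, the log2 fold change was 0.034 with a standard error of 0.14.

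Other caspases were steadier. *Casp2* ran from 138 to 177 CPM over all libraries (log2 fold change 0.057, standard error 0.13), and *Casp6*, an executioner with the highest level per length of the 4, from 87.9 to 120 CPM (0.18, standard error 0.14). *Casp8*, the initiator at death receptors, was at 73.2, 47.7 and 52.9 CPM in controls and 85.5, 84.8 and 70.4 CPM in *Pea3 TKO*. Its edgeR adjusted p was 0.0827 with all libraries and 0.0134 without control replicate 1, which was the highest control.

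None of the 3 inhibitors was called by edgeR, although 2 had an unadjusted p under 0.05 and DESeq2, which called 30.0% of all genes (16.0% higher, 14.1% lower) and 19 of the list, called 1, *Birc2*. *Birc2*, a ubiquitin ligase of receptor complexes, was at 46.3, 43.5 and 35.8 CPM in controls and 65.4, 62.4 and 48.1 CPM in *Pea3 TKO*, without overlap (log2 fold change 0.49, standard error 0.17, edgeR adjusted p = 0.0632, and 0.0338 without *Pea3 TKO* replicate 3). Its neighbour and paralogue *Birc3* was at 14.7, 7.48 and 15.02 CPM in controls and 21.3, 23.4 and 17.0 CPM, also without overlap (log2 fold change 0.73, standard error 0.30, edgeR adjusted p = 0.103). *Xiap*, the direct inhibitor of caspases, is X-linked and stayed between 29.3 and 38.8 CPM (log2 fold change 0.18, standard error 0.16).

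Control replicate 1 was the highest control for 8 of the 14 genes called higher (57.1%), as it was for 63.0% of all genes called higher, and it also had the highest epidermal marker sum among controls. Leaving it out gave 15 genes of the list called higher and 3 lower, against 25.0% of all genes (14.6% higher, 10.4% lower). Without control replicate 2 the list had 10 higher and 3 lower, against 14.6% of all genes (8.42%, 6.2%), and without control replicate 3 also 10 and 3, against 14.4% (8.51%, 5.92%). Without *Pea3 TKO* replicate 1 it had 11 higher and 3 lower, against 17.0% (9.0%, 7.96%), without replicate 2 10 and 2, against 15.4% (8.94%, 6.51%), and without replicate 3 14 and 3, against 22.4% (11.8%, 10.6%). In all 6 of these fits 12 of the 18 called genes passed, and no called gene changed direction. Under a block for the replicate number, 13 genes were higher and 3 lower, against 24.4% of all genes (13.5%, 10.9%).

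**Figure D5:**
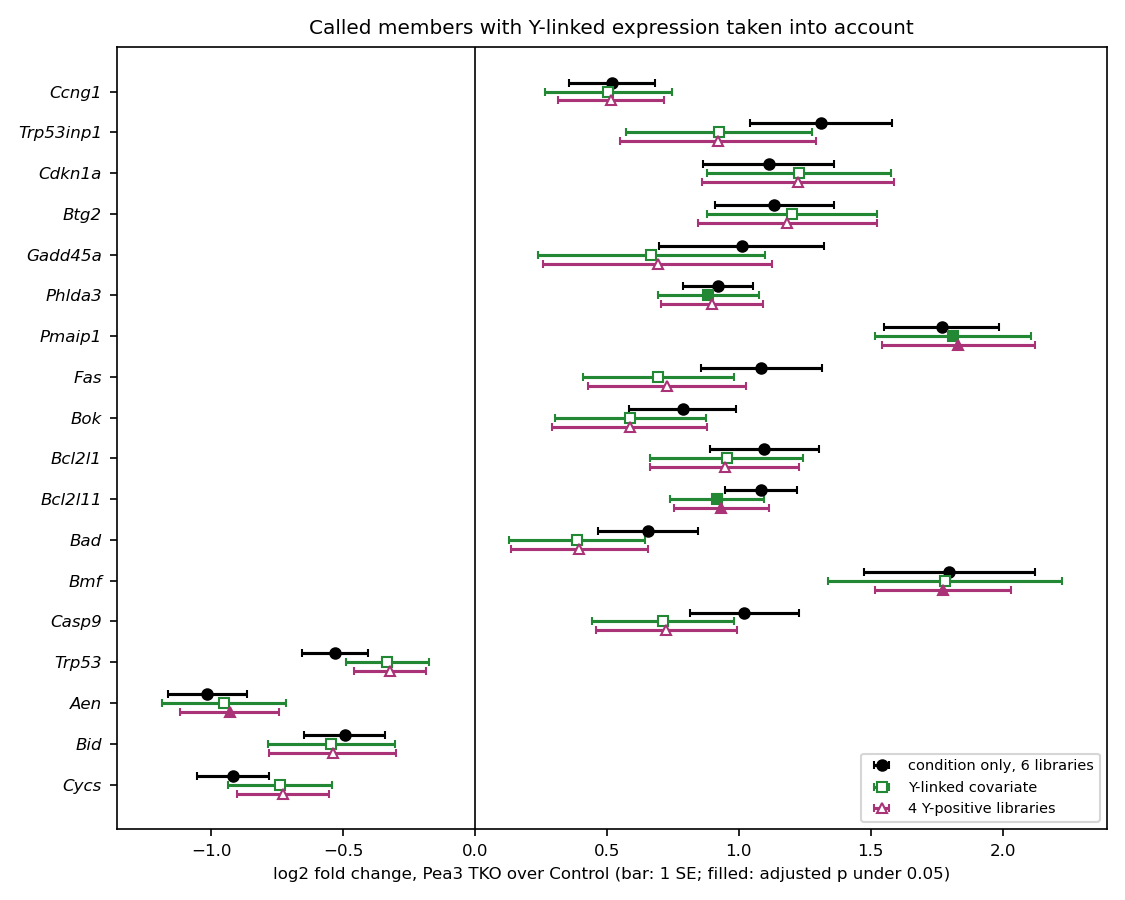
Log2 fold change (bars of 1 SE) of the 18 called genes with condition only in 6 libraries (black circles), with the Y-linked sum as a covariate (green squares) and in the 4 Y-positive libraries (purple triangles); filled symbols have an adjusted p under 0.05. All 18 genes stay on the same side of 0 and, with the covariate, 3 keep a filled symbol. Both alternatives rest mainly on *Pea3 TKO* replicate 3.

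Other genes of the pathways were counted from lists made with earlier results of these data known. Of 49 tested p53 regulators and further targets, 9 were higher and 5 lower (28.6% called, median log2 fold change 0.036), close to the 25.0% of all genes. Among those that rose, the smallest p belonged to *Ddit4*, an inhibitor of mTORC1 (from 27.2 ± 5.50 to 76.9 ± 10.7 CPM, SD, n = 3 each), *Abhd4* (105 ± 12.5 to 198 ± 8.95), *Sfn*, encoding 14-3-3 sigma, and *Ppp1r13l*, encoding the p53 inhibitor iASPP. *Sfn*, at 131 ± 80.3 and 476 ± 3.57 CPM, is also on the list of epidermis and conjunctiva markers. Among those that fell, the receptor *Epha2* went from 85.3 ± 17.6 to 17.5 ± 2.67 CPM, *Sulf2* from 344 ± 15.01 to 246 ± 23.6 and *Ckap2* from 80.5 ± 3.61 to 53.8 ± 12.6, while *Ptprv* was at 1.99 to 2.86 CPM in controls and had 0 counts in every *Pea3 TKO* library. The p53 relative *Trp63* was at 179 ± 36.2 and 174 ± 61.7 CPM and the p53 inhibitor *Mdm4* at 25.9 ± 3.01 and 21.0 ± 5.20 CPM, and neither was called.

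Of 32 further tested genes of apoptosis, 6 were higher and 4 lower (31.2% called, median log2 fold change 0.18), again near the 25.0% of all genes (13.6% higher, 11.3% lower). The death receptor *Tnfrsf21* fell from 83.1 ± 25.8 to 43.1 ± 6.22 CPM, and *Bclaf1* and *Opa1*, the latter a guard of mitochondrial cristae, fell by 0.43 each on the log2 scale. The death ligand *Tnfsf10* rose from 8.88 ± 2.54 to 18.6 ± 1.26 CPM, *Bnipl* from 3.19–11.3 to 15.2–29.2 CPM (lowest and highest library) and the mitophagy receptor *Bnip3l* from 141 ± 13.96 to 192 ± 10.2 CPM, while *Sept4* was at or below the floor of 3 counts in controls and at 0.839 to 2.23 CPM in *Pea3 TKO*. The ligand gene *Fasl* and the paralogues *Bcl2a1a* and *Bcl2a1b* had 0 counts in all libraries.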

How the data were processed

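RNA of 6 laser-captured samples was sequenced. The deposited values are raw read counts per gene symbol, 1 table per sample, made by the authors without normalization. The submitters' notes name bcl2fastq 2.17, STAR 2.5.2b, featureCounts 1.5.0-p3, DESeq and the build mm10; settings, strand handling and annotation are not given in the sources used here. Amplification before library preparation can distort levels, and without molecular identifiers reads are not independent molecules.

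Genes were kept by filterByExpr of edgeR 4.0.16 (R 4.3.3), which left 13087 of 23420, normalized by TMM and tested by its quasi-likelihood F test, with a model of condition alone and p-values adjusted over all genes tested (Benjamini-Hochberg). "Called" means an adjusted p under 0.05. The standard error was taken as the size of the log2 fold change over the root of F. CPM are TMM-normalized counts per 1000000, and lengths are exon unions of the basic set of GENCODE M21 (GRCm38). Nothing states that the samples came from separate litters, so p-values measure only the spread between these samples. Chi-square per degree of freedom was at least 15.5 between replicates, so no 2 libraries agreed within sampling noise. The test was checked on simulated data with 200 of the 13087 genes changed. It recovered 63% of 2-fold and 96% of 4-fold changes, and 4.22% of its calls were false. These rates may differ in the real data, where a larger share of genes was called. Smaller changes and changes of scarce genes were not simulated, so a gene that was not called may still differ.

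The list of genes, the further lists, the roles and the motifs were chosen with earlier results of these data known. The text names every gene on the list, and of each further list up to 4 genes per direction with the smallest p, less any that are not reported here. *Trp63*, *Mdm4*, the named mesenchyme markers and the genes at 0 were named after their values were seen. Alternatives were DESeq2 1.42.0, other size factors and filters, the replicate number as a block, a covariate for Y-linked expression and leaving out each library. The comparison of Y-positive libraries (over 10 CPM of Y-linked genes) was added after the data were seen.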

Additional observations from a re-analysis of the deposited data

How the results depend on the processing

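RLE or upper-quartile size factors, either low-count filter and DESeq2 left the counts of called genes within 1.5 times of those reported, as did the replicate block. The Y-linked covariate reduced the calls to 778 genes, 492 higher and 286 lower, and to 3 genes of the list, 3 higher and 0 lower by edgeR, where 2 lower genes had an unadjusted p under 0.05 (DESeq2 was run without the covariate and called 4 lower). With only the 4 Y-positive libraries, 597 genes were called, 315 higher and 282 lower, and 4 of the list, 3 higher and 1 lower. Under the covariate the log2 fold changes of the 18 called genes were at a median of 0.858 times those without it, and standard errors were larger. In the Y-positive libraries the median was 0.862 times, with fewer samples, and both fits rested mainly on *Pea3 TKO* replicate 3. The cause of the lost calls was not tested. Without 1 library at a time, between 1948 and 3344 genes were called, 1131 to 1948 higher and 799 to 1417 lower, and of the list 12 to 18, 10 to 15 higher and 2 to 3 lower.

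A block for the replicate number left 16 genes of the list called (13 higher, 3 lower), without *Ccng1*, *Gadd45a* and *Bid* and with *Birc2*. Deviations of same-numbered samples correlated at 0.144, -0.0640 and 0.0454, and 2 of 6 samples correlated best with their own number. With 3 samples per group, these values cannot decide whether the numbers pair the samples.

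The sign changed only for genes that were not called. With the covariate the log2 fold change was -0.19 for *Sesn1*, -0.081 for *Sesn2* and -0.060 for *Diablo*, and in the Y-positive libraries -0.17, -0.075 and -0.031. Without 1 library at a time it ran from -0.31 to 0.26 for *Bcl2l2*, from -0.019 to 0.069 for *Mcl1*, from -0.074 to 0.13 for *Diablo* and from -0.029 to 0.13 for *Casp2*. *Bak1*, *Bik* and *Bcl2l2* had means under 5 CPM and standard errors of 0.67, 0.66 and 0.49 on the log2 scale, and *Hrk* had too few counts to be tested.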
